A study of Mus musculus with 20 samples.

Results

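The genes of oxidative phosphorylation were examined in 20 tumours grown in mice from CT26, a carcinoma line derived from the colon of the BALB/c mouse. They were taken by symbol from the protein-coding genes of the GENCODE vM21 annotation, with Ndufa, Ndufb, Ndufc, Ndufs and Ndufv for complex I, Sdh for complex II, Uqcr for complex III, Cox4 to Cox8 for complex IV, Atp5 for complex V and mt- for the mitochondrial genome. This gave 111 of the 55335 genes in the files. Of the members, 84 are nuclear genes for subunits (36 of complex I, 4 of II, 8 of III, 19 of IV and 17 of V), 14 are nuclear assembly factors caught by the same prefixes, and 13 are the mRNAs of the mitochondrial genome. Ndufa4 and Ndufa4l2 are counted with complex IV despite their names.

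The 4 groups held 5 tumours each: POLE-mutant cells with anti-PD-1, POLE-mutant cells with PBS, vector cells with anti-PD-1 and vector cells with PBS. POLE encodes the polymerase subunit of DNA polymerase epsilon, which copies and proofreads the genome, and an antibody to PD-1 blocks a receptor that restrains activated T cells. The labels name neither the substitution nor the way the mutant was made, and do not say whether it is 1 clone. The series title names CHEK2 while the labels and design text name POLE, so the groups are called mutant and vector. No source used here gives mouse age, dose or schedule, and nothing beyond separate samples describes the replicates, so p-values measure the spread between these samples.

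Oxidative phosphorylation takes electrons from NADH at complex I and from succinate at complex II, passes them through complex III and cytochrome c to oxygen at complex IV, and uses the proton gradient so formed to drive ATP synthesis at complex V. Complexes I, III, IV and V combine nuclear subunits with subunits made from the mitochondrial genome, whereas complex II is nuclear throughout. The mitochondrial genome is transcribed from both strands as long precursors that are cut into single RNAs. Several nuclear subunits of complex IV have isoforms typical of striated muscle or of particular conditions, such as low oxygen.

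Values are FPKM, in which fragments are scaled to transcript length and to the library. The depth of the libraries is unknown, and FPKM totals ran from 328740 to 566910 per library. Vector anti-PD-1 replicate 1 stood apart for nearly all nuclear members, as described with its values at the end. Many of the results that include it, but not all, are given with and without it. Its mean Spearman correlation with the other libraries was 0.776. Mutant anti-PD-1 replicates 1 and 2 were also low at 0.748 and 0.835, against 0.899 to 0.930 in the other 17. Of the markers of colon epithelium, Epcam was at most 0.840 FPKM, Cdh1 at most 0.638 FPKM and Vil1 at most 0.342 FPKM, while Krt18 ran from 0.573 to 22.6 FPKM. Summed markers of T cells were 65.9 to 96.5 FPKM in mutant anti-PD-1 tumours, 1.19 to 31.0 in mutant PBS, 1.46 to 7.10 in vector anti-PD-1 and 0.220 to 1.75 in vector PBS tumours. Those of macrophages were 1281 to 3201 FPKM in mutant anti-PD-1 tumours and 289 to 846 FPKM over the other groups. In bulk tissue, fewer cells of a type and less RNA per cell cannot be told apart, and this holds for every result here.

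The mRNAs of the mitochondrial genome were the most abundant members. Their summed level was 27734, 27762, 24403, 21647 and 26982 FPKM in mutant anti-PD-1 tumours, against 31446, 30466, 28912, 34147 and 39876 FPKM in mutant PBS tumours. All mutant anti-PD-1 tumours lay below all mutant PBS tumours. In vector tumours the sums were 14980, 33972, 30579, 23082 and 30483 FPKM with anti-PD-1, against 43238, 35135, 26326, 27349 and 22890 FPKM with PBS. These vector groups overlapped, and the lowest of the 20 sums was the vector anti-PD-1 library that stood apart.

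The nuclear subunits together were far lower per length than the 13 mitochondrial mRNAs. Their summed level was 4434 (replicate 1), 4065, 3777, 3699 and 3949 FPKM in mutant anti-PD-1 tumours, against 4240, 4354, 4324, 4426 and 4422 FPKM in mutant PBS tumours. By FPKM, replicate 1 of mutant anti-PD-1 was above every mutant PBS tumour and the other 4 were below every one. As a share of each library's total FPKM the groups overlapped more. The shares were 1.246%, 1.213%, 1.122%, 1.114% and 1.201% in mutant anti-PD-1 tumours, against 1.169% to 1.255% in mutant PBS tumours. In vector tumours the sums were 11300, 4050, 4035, 5223 and 4230 FPKM with anti-PD-1, against 5237, 4571, 4482, 4401 and 4044 FPKM with PBS. Only the first of these stood clear of the rest. The ratio of mitochondrial to nuclear sums was 5.85 to 6.83 in mutant anti-PD-1 tumours against 6.69 to 9.02 in mutant PBS tumours, and 1.33 to 8.39 in vector anti-PD-1 against 5.66 to 8.26 in vector PBS tumours.

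**Figure D1:**
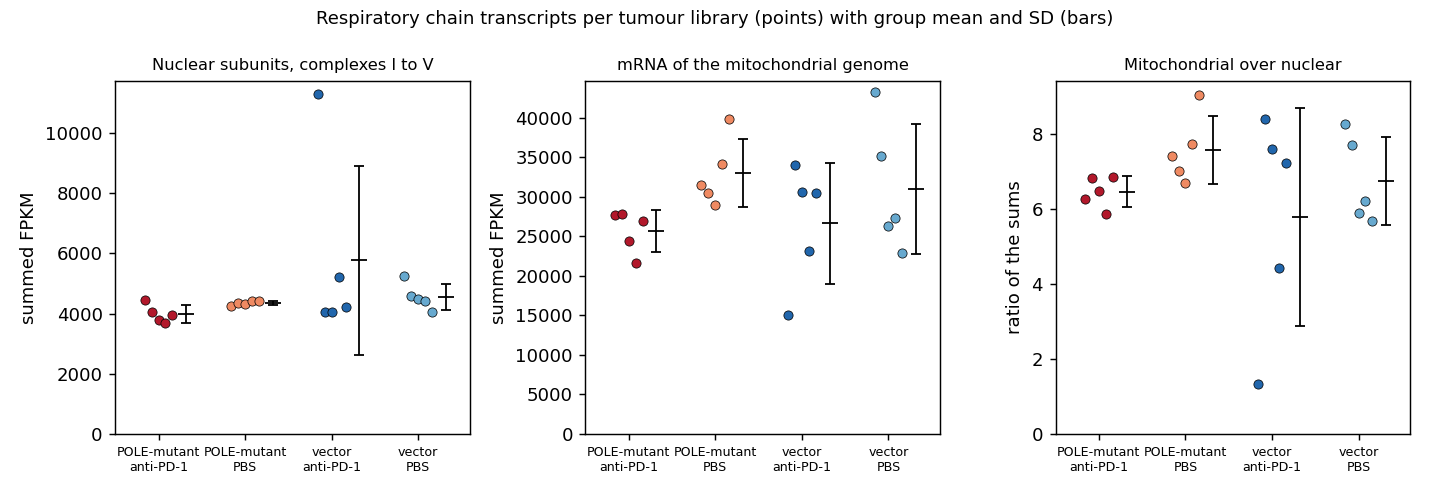
Each point is 1 tumour library. The panels show the summed FPKM of nuclear subunits, the summed FPKM of mitochondrial mRNAs and the ratio of the sums for the 4 groups, with the group mean and SD as bars. Vector anti-PD-1 replicate 1 sits at 11300 FPKM for nuclear subunits and at a ratio of 1.33.

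Levels differed widely between members. The highest nuclear members by mean FPKM were Cox6b1 at 248, Cox8a at 246 and Cox6a1 at 218, all subunits of complex IV. The lowest were ENSMUSG00000116933 and Cox8c, listed at 0 in all libraries, and Cox7b2, which was above 0 in 2 vector PBS libraries and at most 0.139 FPKM. ENSMUSG00000116933 is a second identifier with the symbol Atp5o. Among mitochondrial mRNAs, mt-Co1, the catalytic subunit of complex IV, had the highest mean at 6303 FPKM and mt-Nd3, a subunit of complex I, the lowest at 288 FPKM. A filter of at least 1 FPKM in at least 5 libraries kept 107 members for testing and left out Cox6b2, Cox7b2, Cox8c and ENSMUSG00000116933.

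Copies of mitochondrial sequence in the nuclear genome limit what some mitochondrial values mean. The annotation lists 6 copies side by side on the minus strand of chromosome 1 (mm10, 24611535 to 24616197). Gm28661, Gm28437 and Gm10925 carry mt-Co2, mt-Co3 and mt-Atp6 with no mismatch over 99.6%, 99.9% and 99.6% of the gene. Gm28438 carries 99.1% of mt-Nd3 with 1 mismatch, and Gm29216 and Gm28439 carry 31.3% of mt-Co1 and 63.6% of mt-Nd4. The first 60 bases of mt-Nd3 and bases 1063 to 1122 of mt-Co1 are shown with their copies because each holds the single base, in capitals, that differs between gene and copy over the aligned stretch.
mt-Nd3: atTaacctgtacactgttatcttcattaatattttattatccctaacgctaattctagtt
Gm28438: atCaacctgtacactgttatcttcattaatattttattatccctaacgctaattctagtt
mt-Co1: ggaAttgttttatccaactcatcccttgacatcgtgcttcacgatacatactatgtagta
Gm29216: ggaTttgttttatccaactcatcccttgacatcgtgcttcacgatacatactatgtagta
A short read from these genes can match both places. Values for mt-Co2 were 0.997 to 1.004 times, for mt-Co3 0.999 to 1.002 times and for mt-Nd3 0.962 to 0.984 times those of their copies across the 19 other libraries. In the files, these 3 genes and their copies cannot be told apart. No source used here says how reads that match several places were counted.

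In mutant tumours, few members passed the test between anti-PD-1 and PBS. Of the 107 members tested, 6 passed limma's test at an adjusted p under 0.05, 2 higher and 4 lower in the anti-PD-1 tumours, which is 5.61% of members against 30.5% of all 13982 genes (15.9% higher, 14.6% lower). The median size of the log2 fold change was 0.17 over members and 0.32 over all genes, with median SEs of 0.21 and 0.19. The groups did not overlap for 1 of the 107 members with the anti-PD-1 tumours higher, against 11.1% of all genes. With the anti-PD-1 tumours lower they did not overlap for 12 of the 107, a share close to the 11.8% of all genes. No subunit of complexes I, II or III passed.

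Cox4i2, the isoform of subunit IV known from lung and from low oxygen, had 6.41, 4.35, 1.73, 2.33 and 2.93 FPKM in mutant anti-PD-1 tumours, against 1.503, 0.56, 1.65, 1.26 and 0.505 FPKM in mutant PBS tumours. No values were shared between the ranges, and replicates 1 and 2 of the anti-PD-1 group were the highest. Cox4i2 was higher by a log2 fold change of 1.11 ± 0.26 (SE, n = 5 per group), with a limma adjusted p of 0.00363. Without the 3 libraries that stood apart, which include those 2 replicates, the value was 0.65 with a limma adjusted p of 0.108. Sdhaf4, an assembly factor of complex II, had 18.6, 12.7, 8.02, 8.68 and 9.13 FPKM in mutant anti-PD-1 tumours, against 5.93, 6.14, 8.81, 7.20 and 5.30 FPKM in mutant PBS tumours. Mutant PBS replicate 3 overlapped the anti-PD-1 group. Sdhaf4 was higher by 0.73 ± 0.21 on the log2 scale (limma adjusted p = 0.0149), and the call was lost without mutant anti-PD-1 replicate 1 at 0.59 (limma adjusted p = 0.0682).

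The 4 members that fell came from complexes IV and V and the assembly factors. Atp5g2, 1 of the 3 genes for the membrane ring subunit of ATP synthase, had 53.3, 64.3, 72.8, 77.9 and 78.0 FPKM in mutant anti-PD-1 tumours, against 91.1, 89.8, 81.96, 94.9 and 101.9 FPKM in mutant PBS tumours. Every anti-PD-1 tumour was below every PBS tumour, and the log2 fold change was -0.43 ± 0.12 (limma adjusted p = 0.0102). Without the 3 libraries that stood apart it was -0.25 (limma adjusted p = 0.0713). Its sister genes did not pass, at -0.21 for Atp5g1 and -0.11 for Atp5g3. Atp5b, the catalytic beta subunit of ATP synthase, had 91.3, 163, 189, 186 and 209 FPKM in mutant anti-PD-1 tumours, against 193, 231, 219, 232 and 227.5 FPKM in mutant PBS tumours. The lowest was again replicate 1, and 1 anti-PD-1 tumour lay within the PBS range. Atp5b fell by 0.49 ± 0.15 on the log2 scale (limma adjusted p = 0.0231) and by 0.28 without mutant anti-PD-1 replicate 1 (limma adjusted p = 0.0627). The call was also lost without mutant PBS replicate 2, at -0.45 (limma adjusted p = 0.0582).

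Ndufaf7, a methyltransferase needed for complex I assembly, had 3.24, 4.16, 5.19, 3.94 and 5.05 FPKM in mutant anti-PD-1 tumours, against 5.48, 5.09, 6.09, 6.25 and 6.06 FPKM in mutant PBS tumours. The groups overlapped by 1 tumour, and the log2 fold change was -0.37 ± 0.12 (limma adjusted p = 0.0281). The Ndufaf7 call was lost without mutant anti-PD-1 replicates 1, 2 or 4, at -0.29, -0.37 and -0.35, and without mutant PBS replicates 3, 4 or 5, at -0.35, -0.35 and -0.37 (limma adjusted p = 0.0524 to 0.115). Cox6a2, the striated muscle isoform of subunit VIa, fell by 1.07 ± 0.36 (limma adjusted p = 0.0326), and its values are given with the other isoforms. The Cox6a2 call was lost without mutant PBS replicates 1, 2, 4 or 5 and without mutant anti-PD-1 replicates 1, 3 or 5, and its value ran from -1.48 to -0.82 when each of the 20 libraries was left out.

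In the classes where no member passed, the smallest p belonged to Ndufa12 of complex I at -0.50 ± 0.21 (limma adjusted p = 0.083), Sdhc of complex II at 0.25 ± 0.13 (limma adjusted p = 0.152) and Uqcrq of complex III at -0.56 ± 0.31 (limma adjusted p = 0.178). Ndufa12 is an accessory subunit, Sdhc a membrane anchor and Uqcrq a small subunit of the cytochrome bc1 complex. The medians of complexes I to V were -0.04, 0.12, -0.07, -0.08 and -0.03, beside -0.10 for all genes. Vector anti-PD-1 replicate 1 is in neither group of this comparison, but it adds to the shared estimate of the spread. With it left out, 21 of 107 members passed, 3 higher and 18 lower, which is 19.6% against 48.5% of all genes (20.6% higher, 27.9% lower), and Ndufb11, Ndufa12, Ndufb9 and Uqcrq were then among the members that fell.

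**Figure D2:**
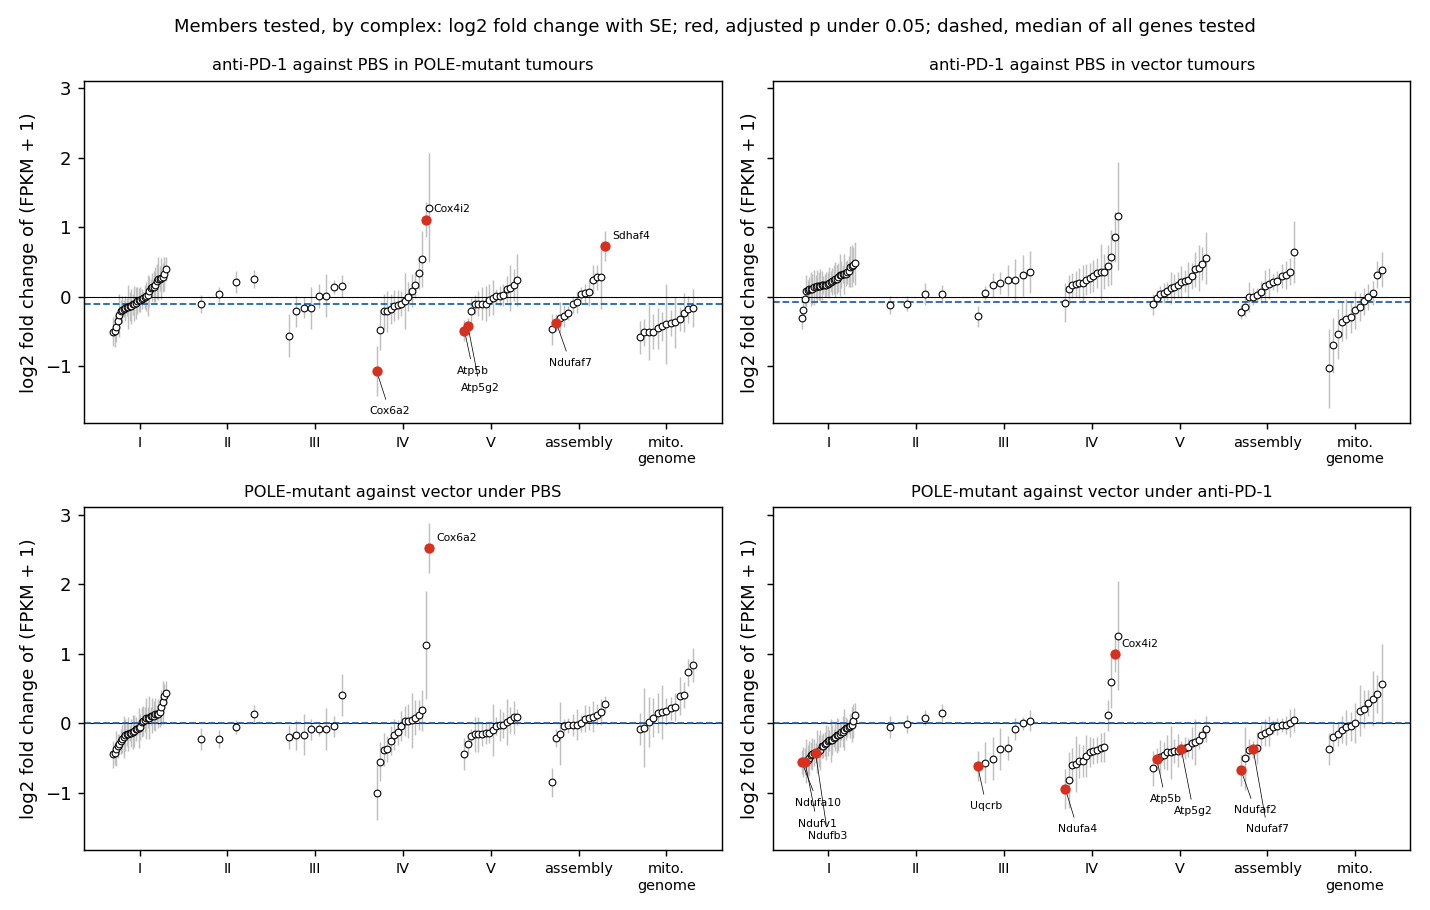
Log2 fold changes of (FPKM + 1) with their SE for the members tested, ordered within each complex, in 4 comparisons. Red points passed an adjusted p of 0.05 by limma, and the dashed line is the median of all genes. Red points number 6 for anti-PD-1 against PBS in mutant tumours, 0 in vector tumours, 1 for mutant against vector under PBS and 10 under anti-PD-1.

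The mitochondrial mRNAs had a fold change below 0 in mutant anti-PD-1 against mutant PBS tumours for 13 of 13 genes, and 0 of the 13 passed limma's test. Their median log2 fold change was -0.40, with a range of -0.58 to -0.17. The smallest adjusted p was that of mt-Nd5, a subunit of complex I, at -0.51 ± 0.19 (limma adjusted p = 0.0543), and 2 of 13 had an unadjusted p under 0.05. mt-Nd5 had 546, 741, 740 (replicate 3), 684 and 887 FPKM in mutant anti-PD-1 tumours, against 901, 819, 700 (replicate 3), 1122 and 1357 FPKM in mutant PBS tumours. The groups overlapped.

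mt-Cytb, the mitochondrial subunit of complex III, had 2936, 2943, 2772, 2302 and 3218 FPKM in mutant anti-PD-1 tumours, against 4239, 4057, 3954, 4167 and 4938 FPKM in mutant PBS tumours. These groups did not overlap. Its log2 fold change was -0.58 ± 0.23 (limma adjusted p = 0.0666). For 4 of the 13 genes the groups did not overlap, with the anti-PD-1 tumours lower, against 11.8% of all genes tested. Without vector anti-PD-1 replicate 1, 4 of the 13 mitochondrial genes passed, all lower: mt-Cytb at -0.57 ± 0.17 (limma adjusted p = 0.0123), mt-Nd6 at -0.53 ± 0.19, mt-Nd5 at -0.51 ± 0.19 and mt-Nd4l at -0.47 ± 0.17. In that fit 27.9% of all genes passed lower and 48.5% in either direction, so the count is close to the share of all genes lower.

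The remaining mitochondrial log2 fold changes in mutant tumours were -0.51 for mt-Nd4l, -0.50 for mt-Nd6, -0.46 for mt-Nd2, -0.42 for mt-Nd4, -0.40 for mt-Atp8, -0.38 for mt-Co3, -0.37 for mt-Atp6, -0.32 for mt-Co2, -0.23 for mt-Co1, -0.18 for mt-Nd3 and -0.17 for mt-Nd1. The median held its sign within both styles of identifier in the sample titles, at -0.15 among titles with M and a number and -0.67 among titles with a number alone. What the style stands for is not stated. Markers of other cell types also differed between mutant anti-PD-1 and mutant PBS tumours. With anti-PD-1, 6 of 6 T cell genes, 6 of 6 macrophage genes and 5 of 5 fibroblast genes were higher by limma's test, with median log2 fold changes of 2.86, 2.02 and 1.83. Summed fibroblast markers were 186 to 1315 FPKM in mutant anti-PD-1 tumours, against 63.9 to 246 FPKM in mutant PBS tumours. The highest were replicates 1 and 2 of mutant anti-PD-1, at 1315 and 837 FPKM. Summed white adipocyte markers were 229 and 92.9 FPKM in these replicates and 11.4 to 14.3 FPKM in the rest of their group. In mutant PBS tumours the adipocyte sum was 9.92 to 50.3 FPKM. Of the 4 colon epithelial markers tested, 4 had a fold change below 0 and 1 passed, the keratin Krt18 at -1.34 ± 0.34 (limma adjusted p = 0.00664). Krt18 had 0.573, 1.86, 7.26, 6.79 and 3.97 FPKM in mutant anti-PD-1 tumours, against 11.1, 8.63, 6.86, 8.39 and 11.9 FPKM in mutant PBS tumours. The part of these cell types in the result was not tested.

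**Figure D3:**
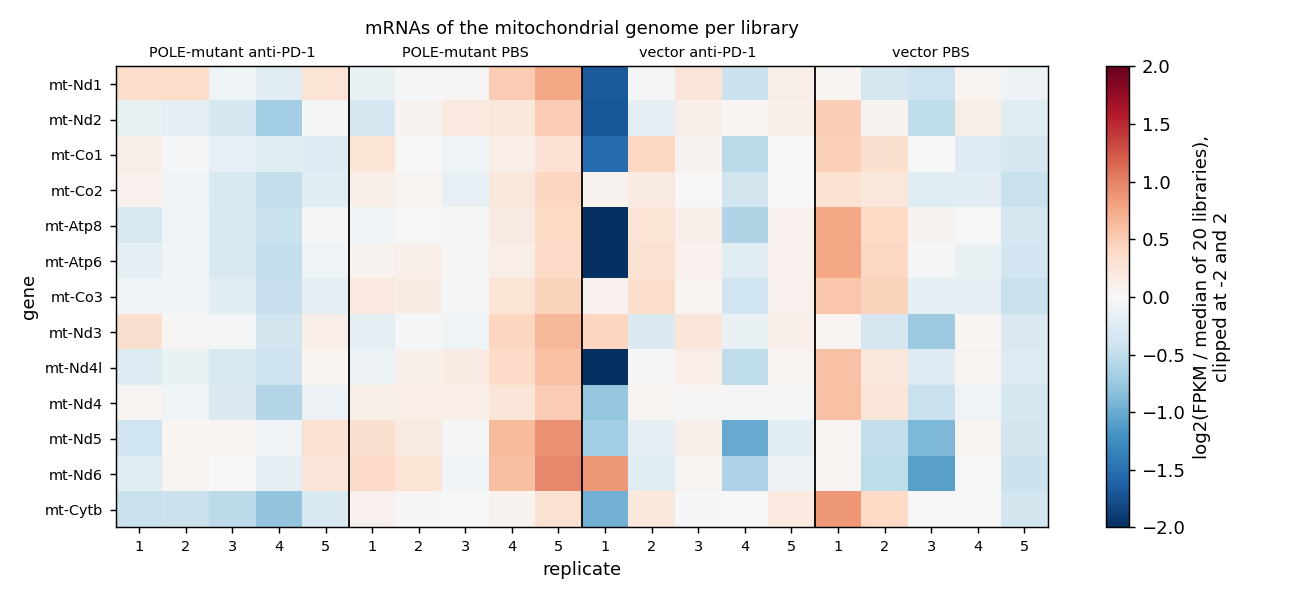
Each row is a mitochondrial mRNA in its order along the genome and each column a library. Colour gives log2 of the FPKM over the gene's median in the 20 libraries, clipped at -2 and 2. For most genes mutant anti-PD-1 columns are bluer than mutant PBS columns, and vector anti-PD-1 replicate 1 is darkest for mt-Atp8, mt-Atp6 and mt-Nd4l and is not blue for mt-Co2, mt-Co3, mt-Nd3 or mt-Nd6.

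Genes around the respiratory chain were read from lists chosen by function, with earlier results of these data known. Of 17 genes for mitochondrial transcription, replication and RNA handling, 8 fell and 0 rose in mutant anti-PD-1 tumours against mutant PBS, which is 47.1% against 30.5% of all genes passing in either direction and 14.6% lower, with a median of -0.30 against -0.10 for all genes. Twnk, the helicase of mitochondrial DNA, had 3.02, 4.84, 5.81, 5.85 and 6.22 FPKM in mutant anti-PD-1 tumours, against 10.03, 10.6, 9.17, 10 and 11.6 FPKM in mutant PBS tumours. No anti-PD-1 tumour reached the PBS range, and Twnk fell by 0.93 ± 0.14 on the log2 scale (limma adjusted p = 0.000101). Tefm, an elongation factor of mitochondrial transcription, fell by 0.54 ± 0.12 (limma adjusted p = 0.00301), and Mterf1a, of the mitochondrial termination factor family, fell by 0.52 ± 0.12 (limma adjusted p = 0.00358).

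Assembly factors outside the prefixes gave 4 lower and 1 higher of 27 tested, 18.5% in all, which is under the 30.5% of all genes. They were led by Timmdc1 at -0.44 ± 0.12 for complex I and by Sco2 at -1.17 ± 0.32 and Cox14 at -0.40 ± 0.13 for complex IV (limma adjusted p = 0.00945, 0.0104 and 0.0256). In the citrate cycle 3 of 13 enzymes fell, namely Dld, Idh3g and Mdh2 at -0.46, -0.46 and -0.57, and 0 rose. That is 23.1%, against 30.5% of all genes passing in either direction and 14.6% lower. Of 7 nuclear regulators tested, the coactivator Ppargc1b and the receptor Esrra rose by 0.45 ± 0.13 and 0.47 ± 0.15 (limma adjusted p = 0.0151 and 0.0274), and 0 fell. Their share was 28.6%, against 30.5% of all genes in either direction and 15.9% higher. Cytochrome c, the product of Cycs, fell by 0.39 ± 0.14 (limma adjusted p = 0.0461), while cytochrome c1, Cyc1, was at -0.30 and did not pass. Without vector anti-PD-1 replicate 1, 10 of 27 assembly factors and 6 of 13 citrate cycle enzymes fell, as did Cycs and Cyc1. In that fit 48.5% of all genes passed in either direction and 27.9% lower. Members and lists were read in the same libraries, so their values are not independent of each other.

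In vector tumours, 0 of 107 members passed between anti-PD-1 and PBS, against 0% of all genes. The groups did not overlap for 1 member, Cox6a2, with anti-PD-1 higher, against 0.279% of all genes, and for 0 members with anti-PD-1 lower, against 0.501%. limma gave 3 members and 426 genes an unadjusted p under 0.05, and every alternative run also called 0 members. Over the nuclear subunits the median was 0.20 on the log2 scale, 71 of 80 lying above 0, and -0.03 without vector anti-PD-1 replicate 1. Complex II did not share this, at a median of -0.03. By the smallest p per class, Ndufs3, a core subunit of complex I, was at 0.32 ± 0.13, Sdhd at -0.10 ± 0.10, Uqcrc2 at -0.28 ± 0.15, Cox6a2 at 0.86 ± 0.36, Atp5d at 0.48 ± 0.24, the assembly factor Sdhaf3 at -0.22 ± 0.10 and mt-Atp8 at -1.03 ± 0.57. The mitochondrial median was -0.19, and -0.004 without that library. Within identifier styles it was -0.46 among M titles and 0.26 among number-only titles.

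Between tumour types under PBS, 1 of 107 members passed, Cox6a2, which is 0.935% against 1.45% of all genes (0.529% higher, 0.923% lower), and 12 members had an unadjusted p under 0.05 by limma. Without overlap between the groups, 4 members were higher in the mutant, against 3.3% of all genes, and 8 lower, against 5.74%. The nuclear median was -0.08 and the mitochondrial median 0.17. Without vector anti-PD-1 replicate 1, which is in neither group, 10 of 107 members passed, a larger share than the 5.38% of all genes. Cox6a2 had 27.4, 19.6, 20.1, 12.8 and 12.5 FPKM in mutant PBS tumours, against 1.85, 2.11, 2.77, 2.78 and 1.97 FPKM in vector PBS tumours. Every mutant tumour was above every vector tumour. The log2 fold change was 2.52 ± 0.36 (limma adjusted p = 0.0013), and it ran from 2.41 to 2.66 when each library was left out in turn. Within identifier styles it was 2.84 in M titles and 2.02 in number-only titles, with limma adjusted p of 0.058 and 0.0795.

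Other classes under PBS held no call. The smallest p belonged to Ndufs1, the largest subunit of complex I, at -0.44 ± 0.16, Sdhc at -0.22 ± 0.13, Uqcrq at 0.41 ± 0.30, Atp5f1 of the ATP synthase stalk at -0.30 ± 0.14, the assembly factor Sdhaf4 at -0.85 ± 0.21 (limma adjusted p = 0.0519) and mt-Nd5 at 0.73 ± 0.19 (limma adjusted p = 0.0696). Of these, Ndufs1, Sdhc and Sdhaf4 lie on chromosome 1, and the part of location was not tested. mt-Nd5 had 901, 819, 700 (replicate 3), 1122 and 1357 FPKM in mutant PBS tumours, against 750 (replicate 1), 512, 386, 750 (replicate 4) and 558 FPKM in vector PBS tumours. The groups overlapped. The mitochondrial median changed sign between identifier styles, at -0.09 in M titles and 0.60 in number-only titles.

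The 2 mitochondrial ribosomal RNAs, which are not among the 13 mRNAs, were also read. mt-Rnr1, the small ribosomal RNA, had 160.5, 127, 132, 199.6 and 227 FPKM in mutant PBS tumours, against 76.0, 76.6, 50.1, 85.4 and 146 FPKM in vector PBS tumours. Vector PBS replicate 5 lay within the mutant range. mt-Rnr1 was higher by 1 ± 0.23 on the log2 scale (limma adjusted p = 0.035), and mt-Rnr2, the large one, was at 0.51 and did not pass. Under anti-PD-1, mt-Rnr1 was higher in mutant than vector tumours by 0.86 ± 0.24 and mt-Rnr2 by 0.94 ± 0.26 (limma adjusted p = 0.00937 and 0.0108).

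Under anti-PD-1, 10 of 107 members passed between mutant and vector tumours, 1 higher and 9 lower, which is 9.35% against 32.9% of all genes (17.8% higher, 15.1% lower). The groups did not overlap for 1 member with the mutant higher, against 12.1% of all genes, and for 6 with it lower, against 7.83%. In the higher direction stood Cox4i2 at 0.99 ± 0.26 (limma adjusted p = 0.00678), with 6.41, 4.35, 1.73, 2.33 and 2.93 FPKM in mutant anti-PD-1 tumours, against 1.52, 0.612, 1.60, 1.34 and 1.14 FPKM in vector anti-PD-1 tumours. The groups did not overlap. Without the 3 libraries that stood apart it was 0.59 (limma adjusted p = 0.156). This comparison shares the mutant anti-PD-1 libraries with the first, so its calls on Cox4i2, Atp5b, Atp5g2 and Ndufaf7 are not separate evidence.

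Among the 9 lower members, 3 belong to complex I. Ndufa10, an accessory subunit, had 20.6, 21.9, 20.1, 19.3 and 19.7 FPKM in mutant anti-PD-1 tumours, against 62.7, 27.2, 23.9, 30.4 and 24.8 FPKM in vector anti-PD-1 tumours. The groups did not overlap, and replicate 1 of the vector group was far above its 4 companions. Its log2 fold change was -0.56 ± 0.17 (limma adjusted p = 0.0181), and -0.35 ± 0.07 without that replicate (limma adjusted p = 0.000986). Ndufv1, the core subunit that binds NADH, was at -0.55 ± 0.20, and -0.32 without that replicate. Ndufb3, an accessory subunit, was at -0.42 ± 0.15, and -0.31 without it. Ndufa10 and Ndufb3 lie on chromosome 1 and Ndufv1 on chromosome 19, and the part of location was not tested.

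The other lower subunits were Uqcrb of complex III, Ndufa4 of complex IV, and Atp5b and Atp5g2 of complex V. Ndufa4 had 31.3, 25.9, 15.01, 14.99 and 24.7 FPKM in mutant anti-PD-1 tumours, against 120.7, 37.5, 32.4, 38.5 and 31.0 FPKM in vector anti-PD-1 tumours. The groups overlapped only through 1 mutant tumour. Ndufa4 fell by 0.95 ± 0.28 (limma adjusted p = 0.0157), and by 0.65 without vector anti-PD-1 replicate 1 (limma adjusted p = 0.0128). Uqcrb was at -0.62 ± 0.22, and -0.36 without that replicate, while Atp5b at -0.51 ± 0.15 and Atp5g2 at -0.38 ± 0.12 moved less, to -0.50 and -0.35. Of the assembly factors, Ndufaf2 fell by 0.68 ± 0.22 and Ndufaf7 by 0.38 ± 0.12 on the log2 scale (limma adjusted p = 0.0262 and 0.0247). Without vector anti-PD-1 replicate 1 they were at -0.44 and -0.29.

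Several of these calls were lost when a single library was left out, often at nearly the same log2 fold change. Without mutant anti-PD-1 replicate 1, Ndufa10 was at -0.53, Ndufv1 at -0.44, Uqcrb at -0.62, Atp5g2 at -0.28, Ndufaf2 at -0.54 and Ndufaf7 at -0.29, and none of these 6 passed. Without mutant anti-PD-1 replicate 2, Ndufb3 at -0.38, Ndufv1 at -0.55, Uqcrb at -0.58, Atp5g2 at -0.36, Ndufaf2 at -0.63 and Ndufaf7 at -0.38 did not pass. Without mutant anti-PD-1 replicate 4, Ndufb3 at -0.39, Ndufv1 at -0.56, Uqcrb at -0.59 and Ndufaf7 at -0.35 did not pass. Uqcrb was also lost without mutant anti-PD-1 replicate 3 at -0.62 or vector anti-PD-1 replicate 4 at -0.64, and Ndufb3 without mutant anti-PD-1 replicate 5 at -0.41 or vector anti-PD-1 replicate 5 at -0.40. Ndufv1, close to the threshold, was lost in 8 of the 20 fits, among them those without vector anti-PD-1 replicate 4, vector PBS replicates 2 or 4 and mutant PBS replicates 4 or 5, at -0.57 to -0.55. Cox4i2, Ndufa4 and Atp5b passed in all 20. Outside the prefixes, 5 of 27 assembly factors and 6 of 17 genes for mitochondrial transcription, replication and RNA handling fell and 0 rose, which is 18.5% and 35.3% against 15.1% of all genes lower. Twnk fell by 1.01 ± 0.14 (limma adjusted p = 3.89e-05). In the same comparison 6 of 6 T cell, 6 of 6 macrophage and 3 of 5 fibroblast markers were higher and 2 of 4 colon epithelial markers lower in mutant tumours, and their part in the members' values was not tested.

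The median over nuclear subunits rested on 1 library. It was -0.35, with 71 of 80 below 0 and 0.00 for all genes, and -0.11 without vector anti-PD-1 replicate 1, beside -0.10 for all genes. Leaving out that library raised the calls to 16 of 107 against 43.2% of all genes (18.1% higher, 25.1% lower), 2 higher and 14 lower, and all 10 calls were kept. Ndufs1, at -0.52 ± 0.09 (limma adjusted p = 0.000244), and mt-Cytb, at -0.58 ± 0.18 (limma adjusted p = 0.0161), were then among the 14. In the fit with that library, no complex II subunit passed, the smallest p being that of Sdha at 0.14 ± 0.13, and 0 of 13 mitochondrial genes passed, the smallest p being that of mt-Cytb at -0.37 ± 0.23. The mitochondrial median was 0.00 over all libraries, 0.45 in M titles and -0.32 in number-only titles.

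The difference of the anti-PD-1 responses, mutant minus vector, passed for 1 of 107 members, 0.935% against 9.35% of all genes (7.4% higher, 1.95% lower). That member was Cox6a2 at -1.93 ± 0.51 (limma adjusted p = 0.0262), with a response of -1.07 in mutant and 0.86 in vector tumours. The call was lost without mutant PBS replicate 1, without mutant anti-PD-1 replicate 1 and without vector PBS replicate 1, at -1.84, -1.83 and -1.81 (limma adjusted p = 0.0526, 0.0569 and 0.0518). By the smallest p in the other classes, Ndufa12 was at -0.66 ± 0.30, Sdhc at 0.21 ± 0.18, Uqcrq at -0.92 ± 0.43, Atp5g2 at -0.47 ± 0.16, Sdhaf4 at 0.74 ± 0.30 and mt-Nd6 at -0.89 ± 0.36. The nuclear median was -0.25, and -0.02 without vector anti-PD-1 replicate 1. The mitochondrial median was -0.28, with 0.23 in M titles and -0.90 in number-only titles.

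The isoforms of complex IV gave the widest range of values among nuclear members. Cox6a2 had 7.29, 24.5, 5.60, 7.05 and 2.40 FPKM in mutant anti-PD-1 tumours, against 27.4, 19.6, 20.1, 12.8 and 12.5 FPKM in mutant PBS tumours. Replicate 2 of the anti-PD-1 group lay within the PBS range and the other 4 below it. In vector tumours it had 10.4, 3.61, 7.04, 3.39 and 2.92 FPKM with anti-PD-1, against 1.85, 2.11, 2.77, 2.78 and 1.97 FPKM with PBS. All vector anti-PD-1 tumours were above all vector PBS tumours, though the comparison did not pass.

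Acta1, muscle actin, marks skeletal muscle and had 64.0, 364, 86.9, 111 and 31.6 FPKM in mutant anti-PD-1 tumours, against 0.144, 55.4, 259.5, 0.239 and 0.778 FPKM in mutant PBS tumours. Mutant PBS replicates 1, 4 and 5, with under 1 FPKM of Acta1, had 27.4, 12.8 and 12.5 FPKM of Cox6a2, above all 5 vector PBS tumours. With anti-PD-1, Acta1 was at 72.8, 0.199, 145, 0.634 and 10.6 FPKM in vector tumours, and the 2 highest of these were also the 2 highest vector anti-PD-1 tumours for Cox6a2. The summed skeletal muscle markers ran from 98.6 to 1768 FPKM in mutant anti-PD-1 tumours, 0.618 to 1170.1 in mutant PBS, 0.979 to 564 in vector anti-PD-1 and 1.503 to 9.49 in vector PBS tumours. With a muscle score in the fit, Cox6a2 was at 2.20 (limma adjusted p = 0.00344) in mutant PBS against vector PBS tumours. The cells that hold Cox6a2 in these tumours were not tested.

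Cox8b, the striated muscle isoform of subunit VIII, had 3.89, 20.6, 3.94, 2.44 and 0.443 FPKM in mutant anti-PD-1 tumours, against 0, 1.88, 14.6, 0 and 0.137 FPKM in mutant PBS tumours. It had 5.24, 0, 7.80, 0 and 0 FPKM in vector anti-PD-1 tumours and was listed at 0 in all vector PBS tumours. Every library with at least 31.6 FPKM of Acta1 had Cox8b above 0, and its log2 fold change in mutant tumours was 1.28 ± 0.78, which did not pass. Cox7a1, the striated muscle isoform of subunit VIIa, peaked at 14.3 FPKM in vector anti-PD-1 replicate 1 and was otherwise 1.22 to 9.37 FPKM. Their general counterparts Cox8a and Cox7a2 were at 178 to 346 and 81.1 to 112 FPKM outside that library.

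Ndufa4l2, an isoform of Ndufa4 known to rise in low oxygen, had 8.13, 6.56, 1.88, 1.81 and 1.90 FPKM in mutant anti-PD-1 tumours, against 2.26, 1.82, 1.37, 3.85 and 1.68 FPKM in mutant PBS tumours. It had 9.14, 5.73, 13.3, 7.63 and 2.71 FPKM in vector anti-PD-1 tumours, against 2.54, 8.09, 3.36, 5.91 and 8.40 FPKM in vector PBS tumours. The groups overlapped in both tumour types. Cox6b2, the testis isoform of subunit VIb, reached 1.86 FPKM in mutant anti-PD-1 replicate 1 and was at most 0.854 FPKM elsewhere. Cox4i1, the general isoform of subunit IV, was at 83.0 to 190 FPKM outside the library that stood apart, against 0.157 to 6.41 FPKM for Cox4i2.

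**Figure D4:**
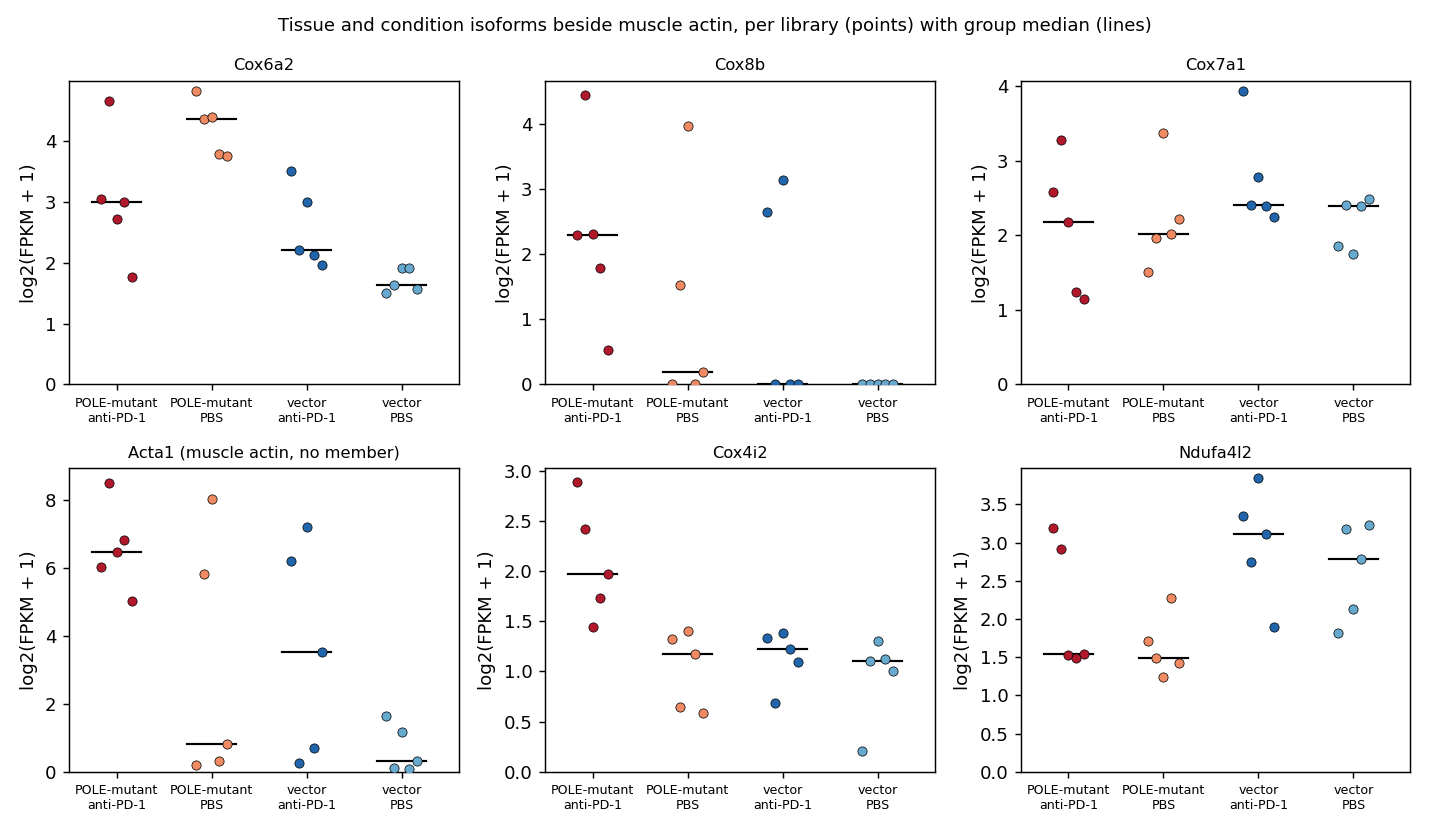
Points are libraries on a log2(FPKM + 1) scale with group medians as lines, for 5 members of complex IV and for muscle actin. Cox6a2 is high in all 5 mutant PBS tumours, while Acta1 is high in 2 of them, and Cox8b is above 0 where Acta1 is high.

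Promoters of 2 complex IV subunits are shown as examples of a window with matches and a window with none. They come from different subunits and are not a contrast of general and muscle isoforms, since the printed stretch of the general Cox8a, like those of Cox7a2, Cox5a and Cox5b, also held no match. RefSeq windows of GRCm38.p6, 250 bases before to 50 after the start, were matched for 80 of the 98 nuclear members, a gene with several windows counting once, and searched on both strands. Capitals mark matches to the NRF1 core (GCATGCGC, which overlaps its own reverse complement here) and to an ETS site for GABP (CCGGAAG), and the 250 bases before the start are printed 5′ to 3′ on the gene's strand, which is the minus strand for both, Cox6a1 at chr5:115348959-115349208 and Cox8b at chr7:140900447-140900696.
Cox6a1: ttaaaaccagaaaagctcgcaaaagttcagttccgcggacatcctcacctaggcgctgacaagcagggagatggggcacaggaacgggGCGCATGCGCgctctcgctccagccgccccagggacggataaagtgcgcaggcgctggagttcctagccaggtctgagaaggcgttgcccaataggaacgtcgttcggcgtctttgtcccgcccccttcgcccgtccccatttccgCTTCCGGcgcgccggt
Cox8b: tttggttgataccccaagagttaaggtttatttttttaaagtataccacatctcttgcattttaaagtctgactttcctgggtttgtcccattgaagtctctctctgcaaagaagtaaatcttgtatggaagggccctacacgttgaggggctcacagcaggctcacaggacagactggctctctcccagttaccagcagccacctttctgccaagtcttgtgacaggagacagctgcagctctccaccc
The NRF1 core was in 15% of these members and 4.1% of all 16699 protein-coding genes with a window, and the ETS site in 26.2% and 13.3%. The ESRRA site (TCAAGGTCA) was in 2.5% and 0.383%, the YY1 site (AAGATGG) in 15% and 7.19%, and the SP1 site (GGGGCGGGG) in 16.2% and 17.9%. A match is a description of these letters and not of a bound site.

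Vector anti-PD-1 replicate 1 had nuclear subunits at 2.61 times and mitochondrial mRNAs at 0.518 times the median of the other 19 libraries. Its total FPKM was the highest of all, at 1.59 times their median. As shares of the total, nuclear subunits were at 1.64 times and mitochondrial mRNAs at 0.315 times the median. The ratios that follow are of FPKM. Complex II was at 1.02 times, with Sdha at 25.0 FPKM, below every other library, and Sdhb at 70.1 FPKM, above every other library. Among mitochondrial mRNAs the ratio was 0.0568 for mt-Atp8, 0.136 for mt-Nd4l, 0.202 for mt-Atp6, 0.301 for mt-Nd2, 0.310 for mt-Nd1 and 0.345 for mt-Co1. It was 1.05 for mt-Co2, 1.10 for mt-Co3, 1.37 for mt-Nd3 and 1.84 for mt-Nd6. The first 3 of these are genes with a near-complete nuclear copy, and mt-Nd6 is the gene on the other strand. mt-Atp6 also has a near-complete copy, but there its ratio to Gm10925 was 0.245 in this library against 0.939 to 0.955 in the others.

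In this library the excess of nuclear members was larger for short transcripts. The 42 tested nuclear members with a longest annotated transcript under 1000 bases had a median log2 ratio of 1.47, against 1.005 for the 52 longer ones. Across the 94 nuclear members the Spearman correlation of ratio with length was -0.41, and across 13975 genes it was -0.46, where short genes had a median of 0.43 and long genes -0.54. Members are not independent replicates, and these values describe 1 library.

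**Figure D5:**
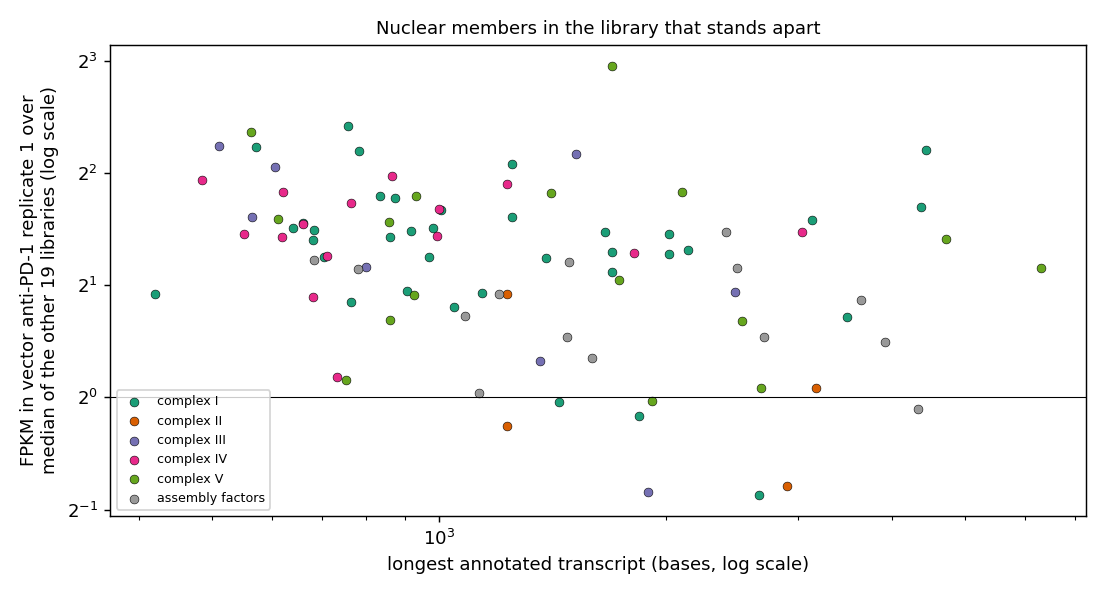
Each point is a tested nuclear member, with its longest annotated transcript in bases on the horizontal log axis and its FPKM in vector anti-PD-1 replicate 1 over the median of the other 19 libraries on the vertical log axis. Most points lie above 1, and complex II points lie near or below 1 apart from Sdhb.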

How the data were processed

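Total RNA of CT26 tumours was sequenced, and the authors deposited 1 FPKM value per gene and library in 20 files. The file headers name no unit, which was inferred from the values and from the tool Cuffnorm, listed with FastQC, STAR 2.5 and the mm10 build per the submitters' processing notes. No source used here gives the library type, the strand setting or the treatment of reads that match several genes. Low values held no step of whole reads, so depth is unknown and no interval is given. In 1 file, 10 extra columns were empty.

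Identifiers were matched to GENCODE vM21, and 55154 of 55335 had a symbol. The 13982 genes that reached 1 FPKM in 5 or more libraries were fitted as log2(FPKM + 1) by limma 3.58.1 (R 4.3.3; trended prior variance), with 4 group means and a term for identifier style (11 M titles, 9 number-only). A fold change is on this scale, which understates the change of low genes. Benjamini-Hochberg adjustment ran over all genes, with a threshold of 0.05. The fit was tested on simulated data. Alternatives covered the pseudocount, filter, scaling, variance model, a muscle term, identifier style and each library. Promoter and length steps used Python 3.11.15 and Biopython 1.88.

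Members and lists were chosen with earlier results of these data known. Genes are named by a rule: up to 4 called members per class, direction and comparison with the smallest p, otherwise the 1 with the smallest p, the isoforms, the mitochondrial mRNAs, the 3 highest and lowest nuclear members, and up to 3 genes per list. Replicate numbers only name a tumour.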

Additional observations from a re-analysis of the deposited data

Results flagged for a closer look

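A library was picked out where its gap to the nearest of its group, over the group's range, exceeded Dixon's 95% value for 5 samples, 0.71. Of 104 groups examined, 21 were picked out, where chance picks out about 1 in 20, and 12 of the 21 lay in vector anti-PD-1 replicate 1. In that library the nuclear subunits summed to 11300 FPKM, and values of single members were 426.1 FPKM for Cox4i1, 675.2 for Cox6a1, 631.7 for Cox6b1, 14.26 for Cox7a1, 266.6 for Cox7a2 and 575.5 for Cox8a. Ndufa10 had 62.73 FPKM there, Ndufa4 120.7, Ndufaf2 13.77, Ndufv1 53.25 and Uqcrb 339.6, all above the rest of the group.

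Mutant anti-PD-1 replicate 2 stood out for Cox6a2 at 24.52 FPKM and Cox8b at 20.62 FPKM, and mutant PBS replicate 3 for Cox8b at 14.59 FPKM and Cox7a1 at 9.369 FPKM. These 2 libraries had the highest Acta1 of their groups, at 364 and 259.5 FPKM. Mutant anti-PD-1 replicate 1 stood out for Cox6a1 at 201.9 FPKM and Ndufb3 at 61.52 FPKM, mutant PBS replicate 1 for a low Cox4i1 at 97.76 FPKM, vector PBS replicate 1 for Ndufb3 at 73.76 FPKM and vector anti-PD-1 replicate 4 for Cox6b2 at 0.4914 FPKM.

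The anti-PD-1 response of Cox6a2 differed between the tumour types by the interaction term, at -1.93 on the log2 scale (limma adjusted p = 0.0262).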

How the results depend on the processing

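No paired analysis was possible because replicate numbers were given in accession order and pair no samples. Each comparison was refitted under 33 alternatives, and no called value changed sign. Nuclear medians, which were never called, took both signs for anti-PD-1 in mutant tumours (-0.15 to 0.06), for anti-PD-1 in vector tumours (-0.04 to 0.36) and between tumour types under PBS (-0.13 to 0.07). With median-ratio scaling, the calls among 107 members were 2 for anti-PD-1 in mutant tumours, 2 for tumour type under PBS and 4 under anti-PD-1. Scaling each library to 1 total, with or without mitochondrial and small RNA genes, gave 3 under PBS and 5 under anti-PD-1, and the first gave 2 for the difference of responses. These scalings moved the median of all genes to 0.18 for tumour type under anti-PD-1 and to -0.20 and -0.21 for anti-PD-1 in vector tumours. Sample weights gave 34 calls in mutant tumours, 22 and 21 for tumour type under PBS and anti-PD-1, and 13 for the difference. A muscle term gave 3 in mutant tumours and 6 for tumour type under anti-PD-1. Without the 3 libraries that stood apart there were 10 in mutant tumours and 16 under PBS. M titles alone gave 0 under PBS, 5 under anti-PD-1 and 0 for the difference, and number-only titles alone gave 30 in mutant tumours, 0 under PBS and 5 for the difference. No low-value filter gave 0 for the difference. The share of all genes called in each of these fits is not given, so the counts do not set members apart from all genes. The cause of these changes was not tested.

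Leaving out 1 library at a time gave 2 to 21 calls in mutant tumours, 0 in vector tumours, 1 to 10 under PBS, 4 to 21 under anti-PD-1 and 0 to 3 for the difference. Without vector anti-PD-1 replicate 1 the count was 21 in mutant tumours, 10 under PBS, 16 under anti-PD-1 and 3 for the difference. The share of all genes called also moved in that fit. It was 48.5% in mutant tumours and 43.2% for tumour type under anti-PD-1, against 30.5% and 32.9% with all libraries. Without mutant anti-PD-1 replicate 1 it was 2 in mutant tumours, 2 under PBS, 4 under anti-PD-1 and 0 for the difference. Counts also moved by over 1.5 times under PBS without vector PBS replicate 1 or vector anti-PD-1 replicate 2 (2 each), under anti-PD-1 without vector anti-PD-1 replicates 2 and 3 (21 and 17) or mutant anti-PD-1 replicates 2 and 4 (4 and 6), and for the difference without mutant PBS replicate 1 (0). Mitochondrial medians moved by more than the spread between tumours in number-only titles, to 0.26 for anti-PD-1 in vector tumours, 0.60 for tumour type under PBS and -0.90 for the difference, and in M titles, to 0.45 for tumour type under anti-PD-1 and 0.23 for the difference.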

Other observations

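Ndufaf4, an assembly factor of complex I, was chosen after its values were seen. Its levels fell into 2 ranges that crossed the groups, with 10 libraries at 1.34 to 4.21 FPKM and 10 at 6.75 to 10.5 FPKM. The upper range held 3 mutant anti-PD-1, 1 mutant PBS, 4 vector anti-PD-1 and 2 vector PBS tumours, and 7 of its 10 libraries had M titles, against 4 of 10 in the lower range.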
